A study of Mus musculus with 11 samples.

Results

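The miRNAs described here are those of liver from G4 telomerase-knockout mice, which carried short telomeres and intact p53 (G4 p53+/+). The 5 libraries labelled with this genotype were taken, of 11 in the series. The other 6 came from telomerase-knockout liver that also lacked p53 (G4 p53-/-). All mice were on the C57/B6 background and received no treatment. The labels give neither age nor sex. No library with intact telomerase was used here, so nothing below separates short telomeres from liver in general. The series asked which liver miRNAs depend on p53 when telomeres are short. Whether each library had a mouse of its own is not said in the labels, so errors and p-values cover the spread among these samples only, which may be technical.

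A miRNA is a short RNA that guides Argonaute proteins to messenger RNAs and lowers their translation or stability. It is cut from a hairpin precursor whose 5' side gives the 5p arm and whose 3' side gives the 3p arm, and usually 1 arm is retained while the other is degraded. Target choice rests mainly on the seed, the bases from position 2 to position 8 of the mature miRNA, so miRNAs with the same seed form a family with overlapping targets. Liver is known for miR-122, which is made almost only in hepatocytes and acts in cholesterol and lipid metabolism.

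The mature sequences below belong to 12 of the 15 most abundant miRNAs. They are written 5' to 3' from RefSeq (build GRCm38.p6), with the seed in capitals, and are shown because the shares of families rest on these 7 letters. The first 4 share the let-7 seed and differ only outside it, and each of the others has a seed of its own. The other three of the 15, miR-122-5p, miR-30d-5p and miR-378a-3p, are named only.
let-7g-5p: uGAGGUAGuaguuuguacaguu
let-7f-5p: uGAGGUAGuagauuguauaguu
let-7c-5p: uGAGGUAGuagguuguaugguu
let-7a-5p: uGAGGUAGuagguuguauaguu
miR-192-5p: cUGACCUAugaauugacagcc
miR-21a-5p: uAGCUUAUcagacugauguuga
miR-148a-3p: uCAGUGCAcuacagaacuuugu
miR-30a-5p: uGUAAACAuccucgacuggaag
miR-26a-5p: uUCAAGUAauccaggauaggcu
miR-22-3p: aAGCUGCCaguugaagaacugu
miR-27b-3p: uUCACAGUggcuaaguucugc
miR-99a-5p: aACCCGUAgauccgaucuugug

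The hairpins of these miRNAs lie in different settings of the GRCm38 genome. Mir192 lies at chr19:6264844-6264932 on the plus strand, outside any other annotated gene. Mirlet7g lies at chr9:106178840-106178927 on the plus strand, in an intron of Wdr82. Mir21a lies at chr11:86584067-86584158 on the minus strand and overlaps an exon of Vmp1. Mir148a (chr6:51269812-51269910, minus strand) and Mir30a (chr1:23272269-23272339, plus strand) lie outside other annotated genes. Mir22 lies at chr11:75463716-75463810 on the plus strand, in an exon of its host transcript Mir22hg and of Tlcd2. Mir27b lies at chr13:63300712-63300784 on the plus strand, in an exon of 2010111I01Rik. Mir99a (chr16:77598936-77599000) and Mirlet7c-1 (chr16:77599657-77599750) lie together on the plus strand in an intron of Mir99ahg. Mature let-7a, let-7f, let-7c and miR-26a each have more than 1 hairpin in the genome, so their counts could not be given to a single locus.

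The deposited table listed 1281 mature names. Total counts per p53+/+ library, with each name counted once, ran from 1905609 to 6448820. Libraries 1 and 2 were the shallowest, at 1965468 and 1905609 counts, and also stood apart in several miRNAs. Several results that rest on them are therefore given with and without them. A count of 0 allowed up to 3 counts, which was a normalised level of 0.465 to 1.57 CPM (counts scaled to a common library total) depending on the library. Between 535 and 616 miRNAs were detected per library. All pairs of p53+/+ libraries differed beyond counting noise (chi-square of 122 to 727 for each degree of freedom). Repeat preparations of 1 RNA could do so too, so this does not show that the samples are separate, and each library was counted as 1 sample by its label.

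A single hepatocyte miRNA made up most of the counts. miR-122-5p took 54.0% of the counts in library 1, 52.4% in library 2, 54.0% in library 3, 57.7% in library 4 and 53.9% in library 5. Its mean share was 54.4% ± 1.95 (SD, n = 5), 12.5-fold that of the next miRNA. Library 2 was lowest (95% Wilson interval 52.3 to 52.5%) and library 4 highest (57.6 to 57.7%), and such intervals cover counting error only. miR-122-5p was first in all 5 libraries.

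The next ranks were held by miRNAs at a few percent each. miR-192-5p, which is abundant in liver and gut, held 4.35% ± 0.837 (SD, n = 5), from 3.24% in library 2 to 5.51% in library 5. let-7g-5p, a member of the let-7 family that represses growth and RNA-binding genes such as Lin28 and Hmga2, held 3.51% ± 0.205 (SD, n = 5). miR-148a-3p, a hepatocyte miRNA that acts on the LDL receptor, held 2.79% ± 0.422 (SD, n = 5). miR-192-5p was above let-7g-5p in 4 of 5 libraries, all but library 2, where the shares were nearly equal.

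miR-21a-5p, a miRNA that rises in many injured and proliferating tissues, took 2.15% of counts in library 1, 2.34% in library 2, 3.15% in library 3, 2.93% in library 4 and 4.46% in library 5. Library 5 was highest, libraries 1 and 2 were both below the rest, and the mean was 3.01% ± 0.913 (SD, n = 5). Without libraries 1 and 2 that mean was 3.51%. miR-30a-5p and let-7f-5p had the same mean to 2 decimals, at 2.24% ± 0.375 and 2.24% ± 0.254 (SD, n = 5), and neither was above the other in every library.

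miR-26a-5p, which acts on cell-cycle genes, took 2.46% in library 1, 2.56% in library 2, 1.47% in library 3, 1.49% in library 4 and 1.31% in library 5. Libraries 1 and 2 were both above the rest, and the mean of 1.86% ± 0.600 (SD, n = 5) became 1.42% without them. miR-22-3p, a miRNA with roles in metabolism and growth control, took 2.20%, 3.93%, 0.772%, 0.853% and 0.630% in libraries 1 to 5. Libraries 1 and 2 were again the high ones. The 95% Wilson interval was 3.90 to 3.95% in library 2 and 0.622 to 0.637% in library 5. Its rank ran from 2 in library 2 to 18, and its mean of 1.68% ± 1.41 (SD, n = 5) fell to 0.752% without libraries 1 and 2. The depth of these libraries was also lower, and the part of depth in this difference was not tested.

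The remaining 6 of the first 15 had means between 1.12% and 1.76%. miR-30d-5p held 1.76% ± 0.161, let-7c-5p 1.50% ± 0.189 and miR-378a-3p, which lies in a gene for a mitochondrial coactivator, 1.39% ± 0.314 (SD, n = 5 each). miR-27b-3p, which acts on lipid metabolism genes, held 1.38% ± 0.307, let-7a-5p 1.36% ± 0.334 and miR-99a-5p, which acts on the mTOR pathway, 1.12% ± 0.333 (SD, n = 5 each). From let-7c-5p down, neighbours in this order differed by less than the SD of either. Without libraries 1 and 2 the means were 1.55% for miR-378a-3p, 1.56% for miR-27b-3p, 1.19% for let-7a-5p and 1.29% for miR-99a-5p.

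**Figure D1:**
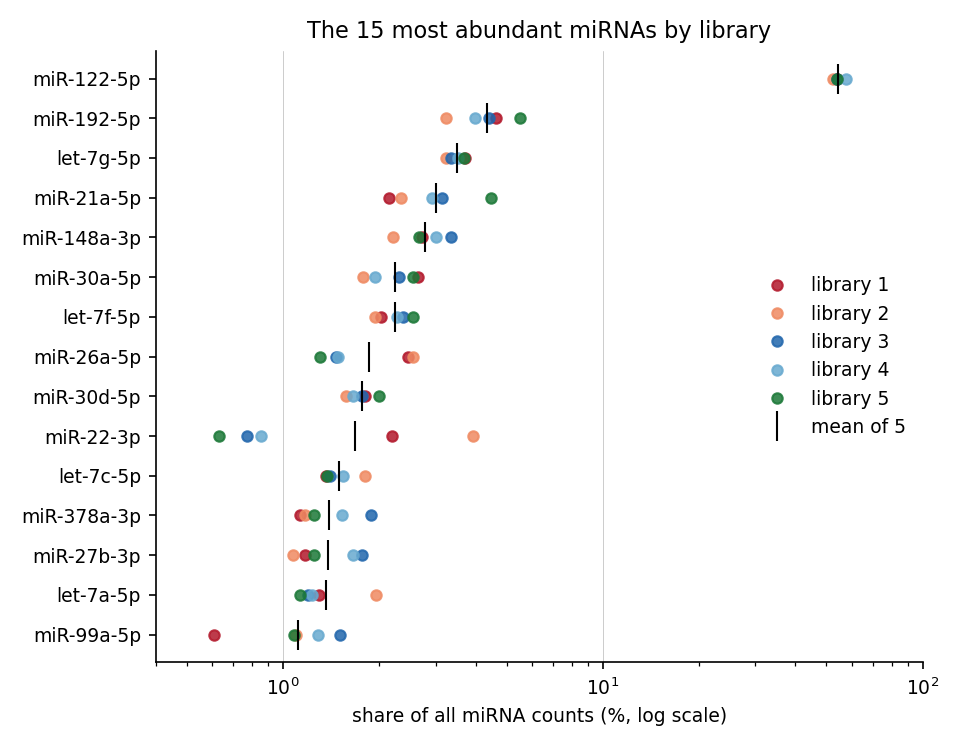
Share of all miRNA counts (x axis, percent, log scale) of the 15 most abundant miRNAs (y axis) in each G4 p53+/+ library, with the mean of 5 as a black tick. miR-122-5p stands apart at 52.4 to 57.7%, while miR-22-3p runs from 0.630% to 3.93% with libraries 1 and 2 highest.

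The order below the first rank was loose. Of the 14 pairs of neighbours in the first 15 ranks, 2 had the same order in all 5 libraries, namely miR-122-5p above miR-192-5p and miR-148a-3p above miR-30a-5p. Still, 12 miRNAs were among the first 15 of every library, 18 were among the first 15 of any, and 41 were among the first 50 of all 5. The 10 most abundant miRNAs held 77.8% ± 1.76 of counts (SD, n = 5) and the first 15 held 84.6%.

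The counts were concentrated in few names. On mean shares, 23 miRNAs held 90% of the counts and 95 held 99%, with 20 to 25 and 89 to 99 in single libraries. A mean share of 1% was reached by 15 miRNAs and 0.1% by 52. At the other end, 551 of the 1281 names had no count in any p53+/+ library. Of the 730 that were detected, 450 were seen in all 5 libraries, and 271 had at least 10 counts in each, which together held 99.9% of counts. The 280 seen in only some libraries held 0.0140% of counts between them, and the highest single count among these was 688, for the pancreas miRNA miR-217-5p in library 5.

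**Figure D2:**
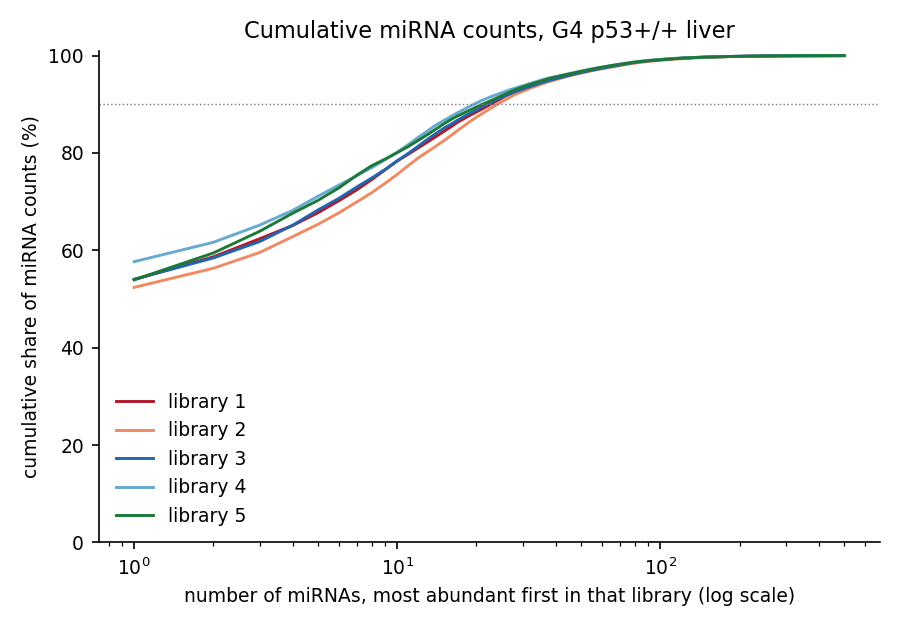
Cumulative share of miRNA counts (y axis, percent) against the number of miRNAs taken in order of abundance within each library (x axis, log scale), 1 line per G4 p53+/+ library, with a dotted line at 90%. The lines start at 52.4 to 57.7% with miR-122-5p alone and cross 90% at 20 to 25 miRNAs.

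The libraries were checked against lists of miRNAs used as markers of cell types, given as summed shares of all counts. Not all of these are confined to 1 cell type, since miR-192-5p in the hepatocyte list is also abundant in gut. In bulk tissue, fewer cells of a type and less miRNA per cell cannot be told apart. The 6 listed hepatocyte miRNAs, led by miR-122-5p and miR-192-5p, were all detected and summed to 59.0 to 65.1%. Most of this sum was miR-122-5p, at a mean of 54.4%, while miR-802-5p had a mean of 0.000705%. Next were 2 endothelial arms of miR-126, at 0.641 to 1.28%, and 5 mesenchymal and stellate miRNAs led by miR-143-3p and miR-145a-5p, at 0.513 to 0.887%. The 5 epithelial and biliary miRNAs, led by miR-200b-3p and miR-200a-3p, summed to 0.0864 to 0.282%. The 6 leukocyte miRNAs, led by miR-146a-5p and miR-150-5p, summed to 0.0742 to 0.187%, and the 4 erythroid miRNAs, led by miR-486-5p and miR-451a, to 0.0556 to 0.129%. Most of the leukocyte sum was miR-146a-5p, at a mean of 0.118% against 0.00648% for miR-150-5p. The labelled tissue, liver, thus had its hepatocyte list as the largest in every library, by a sum that was mostly miR-122-5p.

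By their sums, the lists for organs outside the liver were the lowest of all, an order that for the leukocyte list rests on miR-146a-5p. Of 4 striated muscle miRNAs, miR-208a-3p was at 0 in every library and miR-1a-3p and miR-133a-3p led a sum of 0.000458 to 0.00420%. Of 4 neuronal miRNAs, miR-124-3p was at 0 in every library, and miR-128-3p, which many tissues express, made up nearly all of 0.0167 to 0.0215%, with miR-137-3p second. The 4 pancreas miRNAs, led by miR-375-3p and miR-217-5p, summed to 0.000305%, 0.0102%, 0.00866%, 0.00160% and 0.0387% in libraries 1 to 5. Library 5 was highest, with 750 counts of miR-375-3p and 688 of miR-217-5p, against 6 and 0 in library 1.

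Most hairpins gave nearly all their counts from 1 arm. Of 855 hairpins in the table, 548 had both arms listed, and 145 of these could be compared because neither arm was listed with another hairpin and both arms together had a mean of at least 50 counts. The 5p arm was higher on average in 80 and the 3p arm in 65. The leading arm was the same in all 5 libraries for 136 hairpins, 74 led by 5p and 62 by 3p. On the mean log2 ratio of 5p to 3p (0.5 added to each arm), the lead was over 10-fold in 105 hairpins. It was over 100-fold in 61 and under 2-fold in 9. The median hairpin had 77.7-fold more counts on its leading arm, counted over the summed libraries and with a minor arm under 3 counts set to 3 counts. The spread was small beside this, with a median SD of 0.65 for the log2 ratio of 5p to 3p (0.5 added to each arm). Hairpins were chosen by the names of their arms. miR-199a-3p and miR-199b-3p had equal counts in every library, and miR-486-5p and miR-3107-5p nearly equal ones. The hairpins mir-199b, mir-486 and mir-3107 were kept, so some arm ratios may rest on reads counted under more than 1 name.

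By counts, the 5p side dominated more than by hairpins. Names ending in 5p held 84.9% ± 1.58 of all counts, 3p names 13.8% ± 1.57 and names without an arm 1.30% ± 0.637 (SD, n = 5 each). Without miR-122-5p, the 5p names held 66.9% ± 2.79 (SD, n = 5). Of the 15 most abundant miRNAs, 11 were 5p and 4 were 3p.

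The hairpins of let-7g, mir-29a and mir-423 show the range. They are written 5' to 3' from RefSeq (build GRCm38.p6). In Mirlet7g and Mir29a the capitals mark the arm that held the counts, and in Mir423 they mark both arms.
Mirlet7g: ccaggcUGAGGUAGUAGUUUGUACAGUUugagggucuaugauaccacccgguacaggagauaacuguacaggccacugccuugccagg
Mir29a: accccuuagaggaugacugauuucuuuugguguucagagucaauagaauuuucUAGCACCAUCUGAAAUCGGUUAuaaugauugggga
Mir423: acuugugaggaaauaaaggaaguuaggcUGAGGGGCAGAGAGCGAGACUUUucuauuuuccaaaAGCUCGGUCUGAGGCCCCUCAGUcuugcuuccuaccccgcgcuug
Mir29a lies at chr6:31062660-31062747 on the minus strand, outside other annotated genes, and Mir423 at chr11:77078064-77078172 on the minus strand, in an intron of Nsrp1.

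Hairpins with a mean of at least 1000 counts were ordered by their mean log2 ratio, with 0.5 added to each arm. Where the minor arm had few or no counts, this order rests partly on the 0.5 added and on depth. By it, let-7g leaned furthest to 5p. Its 5p arm had 73031, 61853, 195389, 228160 and 164482 counts in libraries 1 to 5, against 2, 4, 5, 7 and 5 counts of its 3p arm. The minor arm was never above 7 counts, and the log2 ratio was 14.69 ± 0.54 (SD, n = 5). mir-100, of the miR-99 and miR-100 family, had 44872 summed 5p counts and none of 3p, at least 14957-fold more with the floor of 3 counts set over the group. mir-146a, a brake on NF-kB signalling, had 23666 counts of 5p and 1 of 3p, a ratio of 23666 with a 95% counting interval of 4248 to 934757. The mir-21a hairpin had 657356 counts of 5p and 94 of 3p, and mir-30d had 363903 and 149. The mir-122 hairpin had 11320482 counts of 5p and 4483 of 3p, with a log2 ratio of 11.28 ± 0.14 (SD, n = 5), so its minor arm was well counted and its ratio was close between libraries.

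By the same log2 ratio, the hairpins that leaned furthest to 3p were led by mir-29a, whose 3p arm acts on collagen genes. On summed counts, mir-320 and mir-101a (given below) had higher ratios than mir-29a. miR-29a-3p had 10549, 15158, 22406, 21230 and 16338 counts in libraries 1 to 5, against 1, 2, 1, 3 and 3 counts of miR-29a-5p. The 3p arm led in every library, at a log2 ratio of -12.79 ± 0.64 (SD, n = 5). mir-328 had 11050 counts of 3p and none of 5p, at least 3683-fold more with the same floor. mir-320 had 15664 counts of 3p and 1 of 5p, and mir-101a, whose 3p arm acts on the methyltransferase gene Ezh2, had 14480 and 1. Their ratios of 15664 (95% counting interval 2811 to 618695) and 14480 (2599 to 571929) rest on that single count. mir-107 had 16317 counts of 3p and 3 of 5p, a ratio of 5439 (1861 to 26374). mir-27b had 308225 counts of 3p and 267 of 5p, with a log2 ratio of -10.23 ± 0.45 (SD, n = 5).

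A few deeply read hairpins kept both arms. The 5p arm of mir-423 had 1351, 1010, 2965, 3853 and 2813 counts in libraries 1 to 5, and its 3p arm had 3812, 4559, 6781, 8220 and 4806. The 3p arm was higher in all 5 libraries, and the 5p arm held 28.7% ± 7.05 of the hairpin (SD, n = 5). The 5p share was 34.1% ± 4.44 for mir-574, 32.2% ± 7.99 for mir-455 and 23.7% ± 7.90 for mir-28a (SD, n = 5 each). On the 5p side, let-7d kept 84.3% ± 2.37 on its 5p arm and mir-30e 85.4% ± 5.94 (SD, n = 5 each). let-7d and let-7g thus differed in how much of the 3p arm was counted, though their 5p arms share a seed. All 64 hairpins with a mean of at least 1000 counts, 33 led by 5p and 31 by 3p, had the same leading arm in each of the 5 libraries.

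The leading arm changed between libraries in 5 hairpins, each with a mean of at most 219 counts. For mir-195a the 5p arm had 35, 106, 176, 131 and 118 counts in libraries 1 to 5 and the 3p arm 53, 56, 147, 149 and 124, so 5p led in 2 libraries and 3p in 3. The arms were close to equal, at a 5p share of 51.1% ± 9.61 (SD, n = 5). The 5p share was 61.4% ± 9.63 for mir-29c, 52.0% ± 9.42 for mir-345, 65.8% ± 13.8 for mir-434 and 45.4% ± 12.2 for mir-511 (SD, n = 5 each). In 4 more hairpins the arms tied in at least 1 library and otherwise kept 1 leader, namely mir-216b, mir-217, mir-350 and mir-674.

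**Figure D3:**
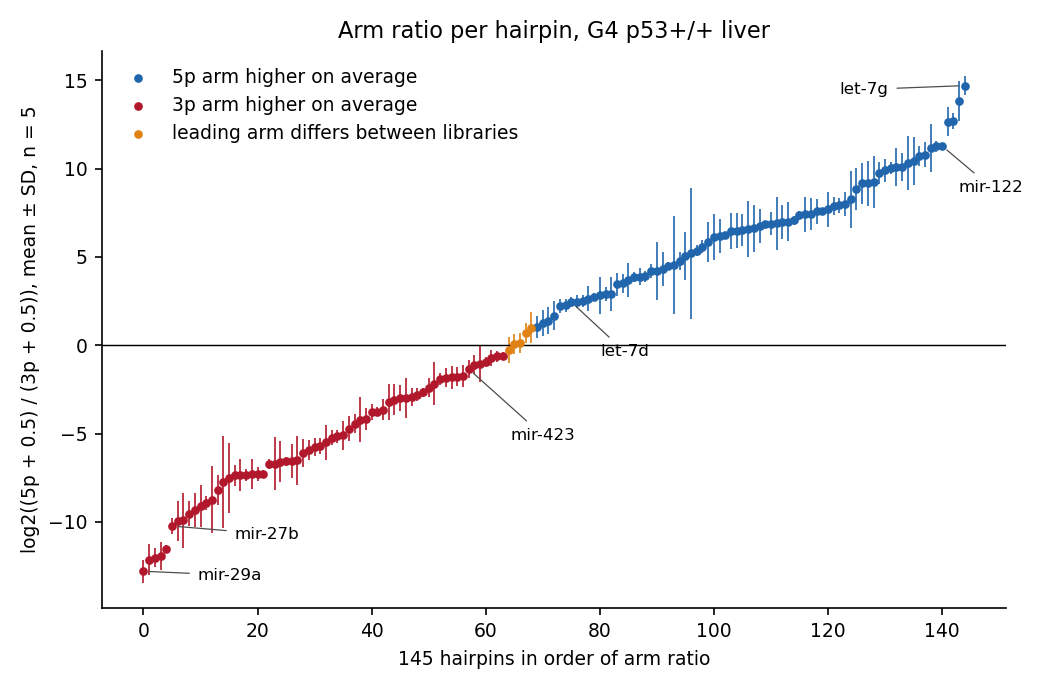
log2 ratio of 5p to 3p counts, with 0.5 added to each arm (y axis, mean ± SD over 5 G4 p53+/+ libraries), of 145 hairpins in order of that ratio (x axis). The ratios run from -12.79 for mir-29a to 14.69 for let-7g, and the 5 hairpins whose leading arm differs between libraries lie around 0.

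Leading and minor arms differed in their first base, a base that Argonaute binds in a pocket. Of 145 leading arms, 121 had a sequence among the RefSeq entries used here, and 63 of these (52.1%) began with U. Of the minor arms, 119 had a sequence and 28 (23.5%) began with U. Over all 1041 names with a sequence the share was 36.5%. Among the 220 of them with at least 10 counts in every p53+/+ library it was 46.4%, nearer to that of the leading arms. Arms of 1 hairpin pair with each other, so these are not independent samples and no test was made. The median length was 22 bases for both kinds of arm. Of the counts with a sequence, which leave out miR-122-5p and are 39.9% of all counts, U began 71.8% ± 1.44, C 14.4% ± 2.05, A 11.9% ± 3.33 and G 1.86% ± 0.272 (SD, n = 5 each). The A share was highest in library 2 at 17.5%, where miR-22-3p, which begins with A, was also highest.

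Families were formed from names with the same seed. The 1041 names with a sequence held 39.9% ± 1.85 of counts (SD, n = 5) and had 862 seeds. The families therefore leave out most counts, above all miR-122-5p at 54.4%, and also miR-30d-5p and miR-378a-3p, and the ranks of families below hold only among names with a sequence. Counts were found for 499 of these, 436 with 1 detected member and 63 with more. The families with more than 1 member held 30.3% of all counts. The 10 most abundant families held 31.6% ± 1.16 (SD, n = 5), and 9 of them were at 1% or more.

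Among these 10, the let-7 family was the most abundant and had the smallest spread relative to its mean. It took 10.5% of counts in library 1, 11.3% in library 2, 10.1% in library 3, 10.4% in library 4 and 10.8% in library 5. Its mean was 10.6% ± 0.453 (SD, n = 5), and none of the libraries stood apart. Of 10 detected members, 7 held over 1% of the family. let-7g-5p led with 33.2% ± 2.57 of the family, then let-7f-5p with 21.1% ± 2.84, let-7c-5p with 14.1% ± 1.36 and let-7a-5p with 12.8% ± 2.61 (SD, n = 5 each). let-7i-5p held 8.84% ± 1.63, let-7b-5p 6.47% ± 1.35 and let-7d-5p 2.84% ± 1.28 (SD, n = 5 each). The sequences printed above show how close these members are, so the authors' counting could move reads between let-7a, let-7c and let-7f. Summing the hairpin rows of a name instead of taking the highest raised the family to 14.3% of counts.

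In the next families, 1 member held most of the counts among names with a sequence. The seed of miR-192-5p held 4.36% ± 0.837 and that of miR-21a-5p 3.01% ± 0.913 (SD, n = 5 each), each almost wholly that miRNA. The CAGUGCA family held 3.03% ± 0.460, of which miR-148a-3p made 92.05%, miR-148b-3p 6.23% and miR-152-3p 1.72%. The GUAAACA family held 2.91% ± 0.424, with miR-30a-5p at 77.1%, miR-30c-5p at 17.2% and miR-30e-5p at 5.73% of it (miR-30d-5p, at 1.76% of all counts, is not in this sum, so these are proportions among the 3 members named). The UCAAGUA family held 2.19% ± 0.726, with miR-26a-5p at 85.1% and miR-26b-5p at 14.9%. Both miR-26 members were higher in libraries 1 and 2, and their proportions moved by little, from 83.8 to 85.9% for miR-26a-5p. Without these libraries the UCAAGUA family held 1.66%.

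The remaining families among the first 10 were smaller. The miR-22-3p seed had that single member, at 1.68% ± 1.41 (SD, n = 5). The ACCCGUA family held 1.51% ± 0.406, with miR-99a-5p at 73.3%, miR-100-5p at 13.8% and miR-99b-5p at 12.9% of it. The UCACAGU family held 1.39% ± 0.304, of which miR-27b-3p made 99.2%. miR-126-3p, the endothelial miRNA hosted by Egfl7, held 0.899% ± 0.254 (SD, n = 5) and was the only member of its seed detected. Relative spread was lowest for let-7, with an SD of 4.27% of its mean, and highest for miR-22-3p, at 84.0%.

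**Figure D4:**
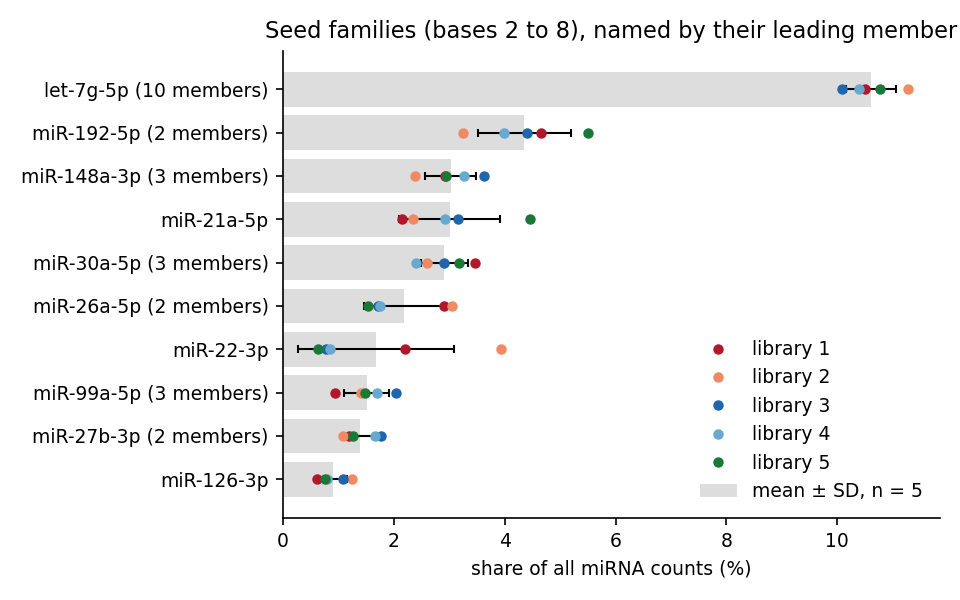
Share of all miRNA counts (x axis, percent) of the 10 most abundant seed families among names with a sequence (y axis, named by their leading member), as the mean (bar) ± SD with 1 point per G4 p53+/+ library. The let-7 family lies at 10.1 to 11.3% in all 5 libraries, while the miR-22-3p seed is high in libraries 1 and 2 only.

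The spread between libraries was measured for the 124 miRNAs with a mean of at least 100 CPM, which held 99.5% of counts. CPM were scaled by TMM here, a method that sets libraries to a common scale from the bulk of their miRNAs. The SD of log2 normalised CPM had a median of 0.34 and ran from 0.08 to 1.39. Counting alone would give a median SD of 0.03, and all 124 miRNAs were above their own counting SD. Without libraries 1 and 2 the median SD was 0.22. Only 5 miRNAs had an SD over 1, and 28 had one under 0.25.

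The widest spread was that of miR-1981-5p. Its normalised CPM were 91.1, 137, 414, 746 and 711 in libraries 1 to 5, so libraries 1 and 2 were both below the rest. For miR-22-3p the normalised CPM were 21260, 34592, 7850, 8828 and 7021, with libraries 1 and 2 both above. Without these libraries the SD of log2 normalised CPM fell from 1.39 to 0.47 for miR-1981-5p and from 1.02 to 0.17 for miR-22-3p.

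Of the 10 widest miRNAs, 5 have no arm in their name and were higher in libraries 1, 2 and 5. miR-5109 had 5739, 2594, 1210, 989 and 4889 normalised CPM in libraries 1 to 5, and miR-6243 had 9642, 6247, 2742, 2290 and 6435. miR-5099 had 2006, 1396, 627, 813 and 2671. All of these were lowest in libraries 3 and 4, which were also the deepest. miR-6240 had its lowest values in the same libraries, at 55.3 and 32.3 normalised CPM against 126 to 199 in the others. miR-5115 had its lowest there too, at 73.3 and 65.8, with 548 in library 1. Over all 124 miRNAs, libraries 3 and 4 were both lowest for these 5 of the 9 names without an arm and for 13 of the 115 names with one. Other names without an arm, such as miR-484 at 431, 511, 277, 291 and 280 normalised CPM in libraries 1 to 5, had another order. This grouping was noticed after the values were seen.

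The other three of the 10 widest followed no common order of libraries. miR-200c-3p, an epithelial miRNA, was highest in library 3 at 344 normalised CPM and lowest in library 1 at 54.2. miR-541-5p and miR-127-3p, both from the imprinted Dlk1-Dio3 region, were lowest in library 2, at 40.2 and 139 normalised CPM, against 93.8 to 192 and 309 to 552 in the other libraries.

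Among the steadiest miRNAs, miR-30b-5p had 257, 271, 271, 249 and 239 normalised CPM in libraries 1 to 5, an SD of 0.08 on the log2 scale where counting alone would give 0.05. miR-1198-5p and let-7e-5p had an SD of 0.09, miR-194-2-3p of 0.10 and let-7c-5p of 0.12. miR-194-2-3p is the minor arm of a hairpin that lies beside mir-192, and it stayed between 284 and 342 normalised CPM. Single let-7 members differed in this, since let-7d-5p had an SD of 0.49 and let-7i-5p of 0.37, both above the median of 0.34.

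**Figure D5:**
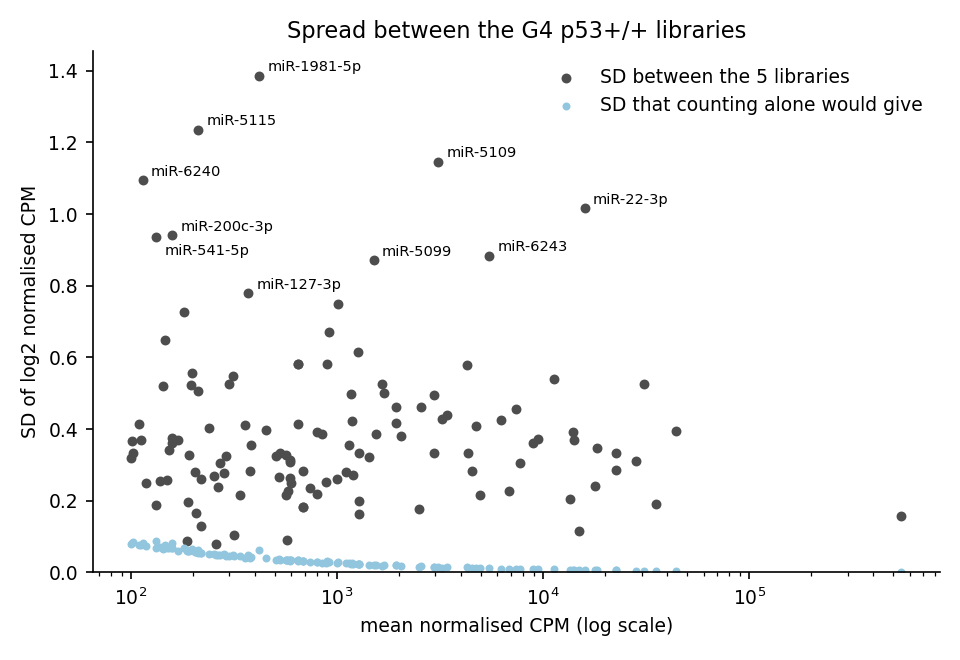
SD of log2 normalised CPM over the 5 G4 p53+/+ libraries (y axis, grey points) against mean normalised CPM (x axis, log scale) for 124 miRNAs, with the SD that counting alone would give in light blue. The 10 widest are named, from 0.78 for miR-127-3p to 1.39 for miR-1981-5p, and all grey points lie above their counting value.

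Libraries 1 and 2 were both above libraries 3 to 5 for 20 of the 124 miRNAs and both below for 38. Among these, 2 differed by more than 2-fold upward (miR-22-3p and miR-125a-5p) and 2 downward (miR-1981-5p and miR-200b-3p). Across the 102 miRNAs with a sequence, the log2 difference of libraries 1 and 2 from the others had a Pearson correlation of 0.04 with GC content, given as a description because miRNAs of the same libraries are not independent. Each library had a Pearson correlation of 0.971 to 0.982 with the mean of the other four across these 124 miRNAs on the log2 scale, lowest for library 2.

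The shape of the repertoire was then set against that of the 6 G4 p53-/- libraries, which also had short telomeres. The 10 miRNAs most abundant in p53+/+ liver held 77.8% ± 1.76 of counts there (SD, n = 5) and 78.9% ± 2.90 in p53-/- liver (SD, n = 6; two-sided exact permutation p = 0.487, adjusted over 4 measures 0.649). These 10 were picked for their high share in the p53+/+ libraries, which tilts the comparison toward that group. Its p-value therefore cannot decide whether counts are equally concentrated in both genotypes, and it is 1 of the 4 adjusted together. The Shannon entropy, which is higher when counts are spread over more miRNAs, was 3.43 ± 0.132 bits against 3.24 ± 0.276 bits (exact p = 0.188, adjusted 0.649). The 5p share was 84.9% ± 1.58 against 86.0% ± 2.26 (exact p = 0.400, adjusted 0.649). With each library reduced to 1905609 counts, 527 ± 14.4 miRNAs would be detected against 531 ± 14.5 (exact p = 0.673, adjusted 0.673). The ranges of the groups overlapped in each measure, and the smallest p this design allows is 0.00216.

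Seed families were tested over all 11 libraries, with fold changes written as p53+/+ minus p53-/- on the log2 scale. In edgeR's quasi-likelihood test with Benjamini-Hochberg adjustment, 1 of 262 families (0.382%) passed an adjusted p of 0.05, and 45 had an unadjusted p under 0.05. The family that passed has the seed GGCAGUG and is 99.7% miR-34a-5p, a miRNA whose gene p53 is known to activate. In CPM by total count, it had 66.1, 55.1, 43.6, 111 and 83.7 CPM in p53+/+ libraries 1 to 5 and 3.43 to 11.0 in the p53-/- libraries. The groups did not overlap, and the log2 difference was 3.29 (SE 0.34, edgeR adjusted p = 5.86e-05). This family was a very small part of the repertoire, since miR-34a-5p was outside the 52 miRNAs at 0.1% or more.

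The next smallest p-values belonged to families that did not pass. The seed CAGUGGG, here miR-194-2-3p alone, had 294 to 337 CPM by total count in p53+/+ libraries and 334 to 593 in p53-/- libraries, a log2 difference of -0.51 (SE 0.13, edgeR adjusted p = 0.130). The seed AAGCUCG, mainly miR-99b-3p with miR-99a-3p, had 48.5 to 54.6 and 61.3 to 91.3 CPM by total count, a log2 difference of -0.67 (SE 0.17, edgeR adjusted p = 0.130). Its groups did not overlap. The same was true of the seed UAUAAUA (miR-374b-5p), which did not pass either, at 95.6 to 165 and 63.6 to 93.4 CPM by total count. How many of the 262 families separated in this way was not counted. With DESeq2 in place of edgeR, 5 families passed, 2 higher and 3 lower in p53+/+ libraries, and these included CAGUGGG and AAGCUCG.

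None of the 10 most abundant families passed, with edgeR adjusted p from 0.243 to 0.979. The let-7 family had a log2 difference of -0.05 (SE 0.14), the miR-192-5p seed 0.12 (SE 0.17) and the miR-21a-5p seed -0.09 (SE 0.26). The miR-22-3p seed had the largest of these, at 0.88 (SE 0.41, edgeR adjusted p = 0.271), with the 2 high p53+/+ libraries described above. A family that missed the threshold is not shown to be equal in both genotypes.

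Arm ratios were tested for 152 hairpins with a mean of at least 50 counts over all 11 libraries. In limma with Benjamini-Hochberg adjustment none passed an adjusted p of 0.05 (0%), and 21 had an unadjusted p under 0.05. This does not show that arm ratios are equal in both genotypes. The leading arm was the same in both genotypes in 150 of the 152, all but mir-511 and mir-195a, which were close to equal in p53+/+ liver. The smallest p was that of mir-300, at a log2 difference of 2.50 (SE 0.58, limma adjusted p = 0.148), followed by mir-149 at -1.59 (SE 0.41, 0.162) and mir-34a at 2.16 (SE 0.66, 0.250). The minor arm was hardly counted in any of these. miR-300-5p had 4 and 2 counts in p53+/+ libraries 3 and 4 and none elsewhere, miR-149-3p had at most 3 counts in a library, and miR-34a-3p had 5 in library 5 alone. The 3 differences thus rest on the 0.5 added to each arm and on the count of the leading arm. Leaving out p53+/+ library 5 gave 3 hairpins that passed, 2 of which were mir-300 and mir-34a.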

How the data were processed

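Small RNA of mouse liver was sequenced in 11 libraries, 5 of them p53+/+. Per the labels' protocols, total RNA came from 50 mg of liver by Trizol and column purification, and libraries were made with an Illumina kit. The authors deposited raw counts for each pair of mature miRNA and hairpin. Per the submitters' processing notes the build was GRCm38 and limma is named without a role. No source used here names the aligner or counter. The authors also deposited a CPM table, in which counts are scaled to the total of all rows. It was read only to learn its scale. Columns of samples outside the series numbered 0.

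The deposited table had 1418 rows for 1281 names, because 76 names are listed once per hairpin. Each name was counted once, with its highest count over these rows, and shares are of the summed counts of a library. Sequences came from RefSeq tables (GRCm38.p6), matched for 1029 names directly and 12 through older names. Part of the RefSeq entries was left out before matching, so a name without a sequence here may have one in RefSeq. Hairpins whose arms are also listed with another hairpin were left out of arm ratios.

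Seed families were tested on summed counts with edgeR 4.0.16 (quasi-likelihood test, TMM, filterByExpr) in R 4.3.3, and arm ratios, log2 with 0.5 added to each arm, with limma 3.58.1. DESeq2 1.42.0 was an alternative. Library measures were compared by exact permutation of 462 splits. The tests were tried on simulated data in which 20 families or hairpins were changed 2-fold. The family test recovered 27.5% of these and the arm ratio test 15.5%, with 5.17% and 11.4% of their calls false. Changes of that size would thus mostly be missed. Normalised CPM are CPM after TMM, and a prior count of 2 was added only for their log2 values.

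Named were the 15 most abundant miRNAs, the 10 most abundant seed families with members over 1%, 6 hairpins furthest to each arm and nearest to equal at 1000 counts or more, the hairpins with no constant leader, the 10 widest and 5 steadiest miRNAs, the 2 leading miRNAs of each cell type list, and in each genotype test those that passed or the 3 smallest p. The libraries, lists and these rules were chosen with earlier results of these data known.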

Additional observations from a re-analysis of the deposited data

Results flagged for a closer look

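Within the 5 p53+/+ libraries, 77 measures were screened for a single library far from the other four, by its gap to the nearest of them over the whole range (above 0.71), and 7 stood out. Chance alone gives about 1 in 20 for independent measures drawn from a normal distribution. The measures here are related, and some miRNAs among them were chosen as the widest or steadiest on these same values. The 7 can therefore not be read against that rate. Library 2 had 1.95% of counts for let-7a-5p against 1.13 to 1.30% in the others. Library 2 also had the lowest log2 arm ratio of let-7g, 13.75 against 14.83 to 15.12, and of mir-122, 11.04 against 11.29 to 11.38. The let-7g value rests on 4 counts of the 3p arm, while mir-122 had 474.

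Library 1 had 548 normalised CPM of miR-5115 against 65.8 to 193. Library 5 had 207.5 normalised CPM of miR-1198-5p against 178 to 185, a small step in one of the steadiest miRNAs. Library 3 had 0.282% for the summed epithelial and biliary list against 0.0864 to 0.136% in the others. In library 5 the summed pancreas list held 0.0387% against 0.000305 to 0.0102%. Presence of pancreatic tissue in that sample was not tested.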

How the results depend on the processing

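Shares are of counts. miRNA names with several hairpins gained most when their rows were summed, which raised the let-7 family, the most abundant among families, which leave out miR-122-5p, to 14.3% of counts. Among counts other than those of miR-122-5p, the let-7 family held 23.3%, the 10 most abundant miRNAs 54.7%, and 41 miRNAs held 90%. At least 1 count in every library was found for 450 miRNAs and at least 50 counts for 180.

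The number of hairpins with no constant leader was 3 without libraries 1 and 2, 12 at a minimum of 10 counts and 0 at 500, where 46 were led by 5p. The log2 arm ratio of 3 near-equal hairpins changed side. With each library left out in turn, mir-195a ran from -0.15 (without library 2) to 0.23 and mir-345 from -0.075 (without library 5) to 0.30, and mir-511 was 0.20 without libraries 1 and 2. The median SD of log2 normalised CPM was 0.22 without libraries 1 and 2, and 0.29 to 0.37 when each library was left out in turn.

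Between genotypes, DESeq2 called 5 seed families. Leaving out each library in turn gave 1 family throughout and 0 to 3 hairpins by arm ratio, the 3 without p53+/+ library 5, and a pseudocount of 5 gave 1. The difference in the number detected at equal depth was -3.72 and ran from -9.15 to 0.187, the last without p53+/+ library 5. The cause of these changes was not tested. No paired analysis was possible because the replicate numbers run across both genotypes and share none. Depth limits low miRNAs: 3 counts were 1.57 CPM in the shallowest library.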
